A study of Mus musculus with 2 samples.

Results

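The 8 genes described here, Tbx1, Tbx2, Tbx3, Tbx4, Tbx5, Tbx15, Tbx18 and Tbx20, encode T-box transcription factors and were chosen by name. All 8 had a row in at least 1 of the per-library tables, out of 17431 genes with a read, and a gene without a row in one table counted as 0 reads there. Poly(A) RNA came from 2 cultures of BALB/c mouse dermis, with 1 library each. The skin-derived precursors (SKPs), dermal cells selected by their growth in mitogens, came from mice at postnatal day 4 and were kept in DMEM/F12 with 2% B27 and 2 mitogens, 40 ng/ml FGF2 plus 20 ng/ml EGF. The fibroblasts came from mice at postnatal day 3 and were kept in DMEM with 10% fetal bovine serum. The SKP library was sequenced to 22981183 reads and the fibroblast library to 23374716 reads. Cell type, age and medium cannot be told apart in this design, and with 1 library a group no difference below has a replicate check.

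T-box factors bind DNA through a shared domain, the T-box, and act as activators or repressors in the patterning of limbs, heart, pharynx and skin. In the vertebrate family Tbx15, Tbx18, Tbx1 and Tbx20 are close relatives of one another, and Tbx2, Tbx3, Tbx4 and Tbx5 form another branch, with Tbx2 beside Tbx4 on one mouse chromosome and Tbx3 beside Tbx5 on another. In mouse skin Tbx15 is known for setting the boundary between back and belly coat colour and Tbx18 for its activity in hair follicle mesenchyme.

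Because the genes share the T-box, the stretches where their reads could be confused are shown first. Reads were 49 bases long and were placed with at most 2 mismatches. Among the 28 pairs of the 8 genes, the closest 49-base coding windows differed at 4 to 12 bases. The closest windows of 3 related pairs are printed 5′ to 3′ as the coding strand, with capitals where the 2 genes of a pair differ.
Tbx15: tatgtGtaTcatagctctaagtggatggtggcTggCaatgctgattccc
Tbx18: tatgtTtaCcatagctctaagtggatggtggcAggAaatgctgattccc
Tbx4: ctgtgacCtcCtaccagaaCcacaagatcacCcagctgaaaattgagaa
Tbx5: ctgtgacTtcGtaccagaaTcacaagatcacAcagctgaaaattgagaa
Tbx2: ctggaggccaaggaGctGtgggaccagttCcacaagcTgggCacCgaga
Tbx3: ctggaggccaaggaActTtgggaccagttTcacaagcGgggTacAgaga
These windows, from GENCODE transcripts, lie in build GRCm38 at chr3:99314745-99314793 on the plus strand (exon 4 of Tbx15), chr9:87724424-87724472 on the minus strand (exon 4 of Tbx18), chr11:85833431-85833479 on the plus strand (exon 1 of Tbx2) and chr5:119672334-119672382 on the plus strand (exon 1 of Tbx3). The windows of Tbx4 and Tbx5 cross the junction of exons 6 and 7, and run on the plus strand between chr11:85911234-85911958 and between chr5:119845092-119853551, introns included. The pairs Tbx15 with Tbx18 and Tbx4 with Tbx5 differed at 4 of the 49 bases, and Tbx2 with Tbx3 at 6. No 49-base window of the longest coding transcript of any of the 8 genes matched a transcript of another of the 8 within 2 mismatches.

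Matches to genes outside the set were few with the exception of Tbx18. For Tbx18, 18.96% of windows matched another gene, nearly all of them (18.2% of windows) the transcript D030062O11Rik, which overlaps Tbx18 on the opposite strand. For Tbx3, 1.46% of windows matched the antisense transcript Tbx3os1. For Tbx5 and Tbx20 the shares were 1.49% and 0.719%, spread over many genes, for Tbx15 0.0569%, and for Tbx1, Tbx2 and Tbx4 they were 0%. None of the overlapping antisense transcripts has a row in the tables, and the counting strand is not stated in these sources. Within the matching windows, reads of Tbx18 and Tbx3 therefore cannot be told apart from those of the antisense transcripts.

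Among the 8 genes, Tbx15 had most of the summed RPKM in both cultures, followed by Tbx18. Tbx2 and Tbx3 came next in the SKP library and Tbx3 in the fibroblast library, where the levels of Tbx2 and Tbx1 could not be separated. Tbx1, Tbx5, Tbx4 and Tbx20 had few reads in both. The gene that set the cultures apart was Tbx2, a transcriptional repressor, which was 9.37-fold higher in the SKP library. Tbx3 and Tbx18 were 1.58-fold and 1.48-fold higher there and Tbx15 was 1.52-fold higher in the fibroblast library, all under 2-fold. The summed level of the 8 genes was 53.9 RPKM in the SKP library and 69.3 RPKM in the fibroblast library, where RPKM is the read number scaled to gene length and library total. Tbx15 made up 76.4% of the sum in the SKP library and 90.2% in the fibroblast library.

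A gene was called expressed at an RPKM of 1 or more with 20 reads or more in either library, and called higher or lower at a difference of 2-fold or more with a 95% exact (Clopper-Pearson) counting interval that excluded equality. Intervals in parentheses below are of this kind for ratios and exact Poisson intervals for levels. They cover counting error only and take each read as an independent molecule, so PCR duplicates would make them too narrow. Variation between cultures is not covered. Of the 8 genes 4 were expressed, of which Tbx2 alone was higher in SKPs, 0 were lower and 3 were neither. Among all 12053 expressed genes 12.1% were higher and 6.41% lower. The ratio interval excluded equality for all 4 expressed T-box genes, as it did for 72.1% of all expressed genes. At a limit of 1.5-fold, 2 of the 4 were higher (Tbx2 and Tbx3) and 1 was lower (Tbx15), beside 18.7% and 14.2% of all expressed genes.

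**Figure D1:**
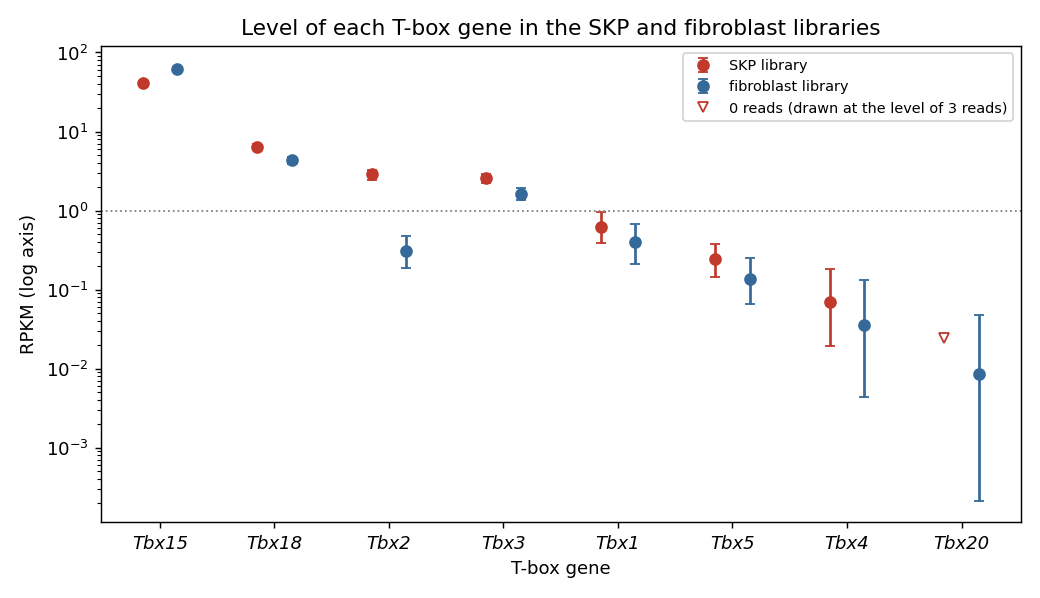
Level of each T-box gene in RPKM on a log axis, in the SKP library (red) and the fibroblast library (blue), with 1 library per group. Bars are 95% exact Poisson intervals, the dotted line is RPKM 1, and the open triangle marks Tbx20 with 0 SKP reads, drawn at the level that 3 reads would give. Tbx15 is highest in both libraries, and the points of a gene lie farthest apart for Tbx2, at 2.86 RPKM in the SKP library and 0.305 RPKM in the fibroblast library.

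Tbx15 (gene ID 21384) stood at 41.2 RPKM (39.7 to 42.7) in the SKP library, from 2797 reads, and at 62.5 RPKM (60.6 to 64.4) in the fibroblast library, from 4122 reads. Reads covered 98.86% of its length in both libraries. It ranked 1754th among all genes by RPKM in the SKP library and 1147th in the fibroblast library, above 85.4% of expressed genes in SKPs and 90.5% in fibroblasts. Its ratio of SKP over fibroblast was 0.659 (0.628 to 0.692), the only ratio below 1 among the 7 genes for which one could be formed. As in any bulk sample, fewer cells with a transcript and less of it per cell cannot be told apart.

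Tbx18 (76365), the closest relative of Tbx15 and a regulator of somite, ureter and epicardial mesenchyme, stood at 6.36 RPKM (5.85 to 6.91) in the SKP library, from 564 reads. In the fibroblast library it stood at 4.31 RPKM (3.88 to 4.77), from 371 reads. The ratio of 1.48 (1.29 to 1.69) ran opposite to that of Tbx15. Per length, Tbx15 RNA exceeded Tbx18 RNA 6.47-fold (5.91 to 7.10) in the SKP library and 14.5-fold (13.04 to 16.2) in the fibroblast library, and these intervals do not overlap.

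Tbx1 (21380), the pharyngeal T-box gene of velocardiofacial syndrome, had 21 reads in the SKP library and 13 reads in the fibroblast library. That is 0.624 RPKM (0.386 to 0.953) in SKPs and 0.397 RPKM (0.212 to 0.68) in fibroblasts, so in both cultures it lay below the expression filter. Its ratio of 1.57 (0.75 to 3.41) did not exclude equality. Tbx20 (57246), a regulator of cardiac muscle and valve development, had 0 reads in the SKP library and 1 in the fibroblast library. A count of 0 allows up to 3 reads, or 0.0246 RPKM for a gene of its length in the SKP library, and no ratio was formed.

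Tbx2 (21385), a repressor known for holding back cell cycle inhibitors and for limb and heart patterning, had 193 reads in the SKP library and 20 reads in the fibroblast library. Its level was 2.86 RPKM (2.47 to 3.29) in the SKP library and 0.305 RPKM (0.186 to 0.471) in the fibroblast library. Reads covered 70.49% of its length in the SKP library and 23.22% in the fibroblast library. The ratio of 9.37 (5.90 to 15.7) lay above that of 96.8% of expressed genes, and its interval lay above those of Tbx1, Tbx3, Tbx5, Tbx15 and Tbx18. It met the expression limit in SKPs only, so the filter itself favours a higher value there. In the authors' deposited table the log2 ratio of fibroblast over SKP was -3.23, and Tbx2 was the 1 gene of the 8 in their filtered table. That table held 2659 genes, beside 17431 genes with a read, so 1 of 8 is near the share over all genes.

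Tbx3 (21386), a close relative of Tbx2 that also represses and is needed in mammary gland and limb, stood at 2.56 RPKM (2.25 to 2.91) in the SKP library, from 247 reads. In the fibroblast library it stood at 1.62 RPKM (1.38 to 1.90), from 152 reads. The ratio was 1.58 (1.28 to 1.94). In the SKP library the levels of Tbx2 and Tbx3 could not be separated, with a Tbx2 to Tbx3 ratio of 1.11 (0.919 to 1.35). In the fibroblast library Tbx3 exceeded Tbx2 5.33-fold (3.33 to 8.97).

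Tbx5 (21388), the forelimb and heart gene, had 18 reads in the SKP library and 10 reads in the fibroblast library, or 0.241 RPKM (0.143 to 0.381) in SKPs and 0.138 RPKM (0.0661 to 0.254) in fibroblasts. Tbx4 (21387), its hindlimb counterpart, had 4 reads in the SKP library and 2 reads in the fibroblast library, or 0.0701 RPKM in SKPs and 0.0361 RPKM in fibroblasts. The ratios of 1.75 (0.765 to 4.24) for Tbx5 and 1.94 (0.278 to 21.5) for Tbx4 both included equality. No difference in either limb gene was detectable at this depth.

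**Figure D2:**
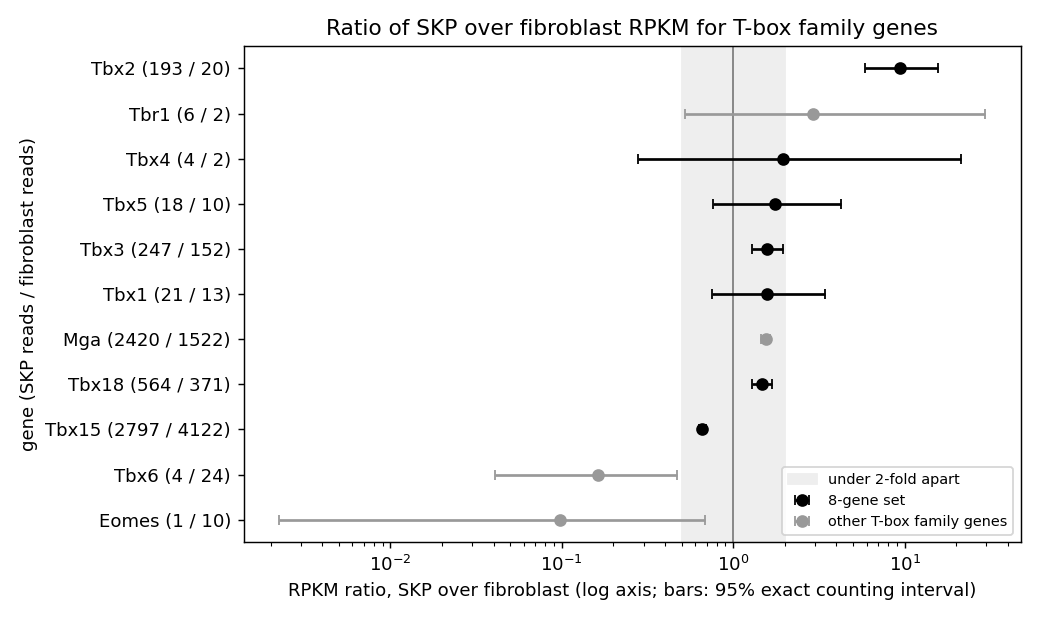
Ratio of SKP over fibroblast RPKM on a log axis for the T-box genes with a read in both libraries, the 7 of the set in black and 4 other family genes in grey, with reads of the SKP and fibroblast library in brackets beside each name. Bars are 95% exact counting intervals and the grey band marks less than 2-fold. Tbx2 lies to the right of the band at 9.37, and Tbx3, Tbx18 and Tbx15 lie inside it with narrow bars.

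In the SKP library the order of levels ran Tbx15, Tbx18, Tbx2, Tbx3, Tbx1, Tbx5, Tbx4 and Tbx20, and the only neighbours whose ratio interval included equality were Tbx2 and Tbx3. In the fibroblast library the order ran Tbx15, Tbx18, Tbx3, Tbx1, Tbx2, Tbx5, Tbx4 and Tbx20. There the first 3 steps, down to Tbx1, were larger than counting error. From Tbx1 downwards neighbours were not separable, with ratios of 1.30 (0.596 to 2.75) for Tbx1 to Tbx2 and 2.21 (0.989 to 5.29) for Tbx2 to Tbx5. The change of place of Tbx2 was the 1 difference between the orders.

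**Figure D3:**
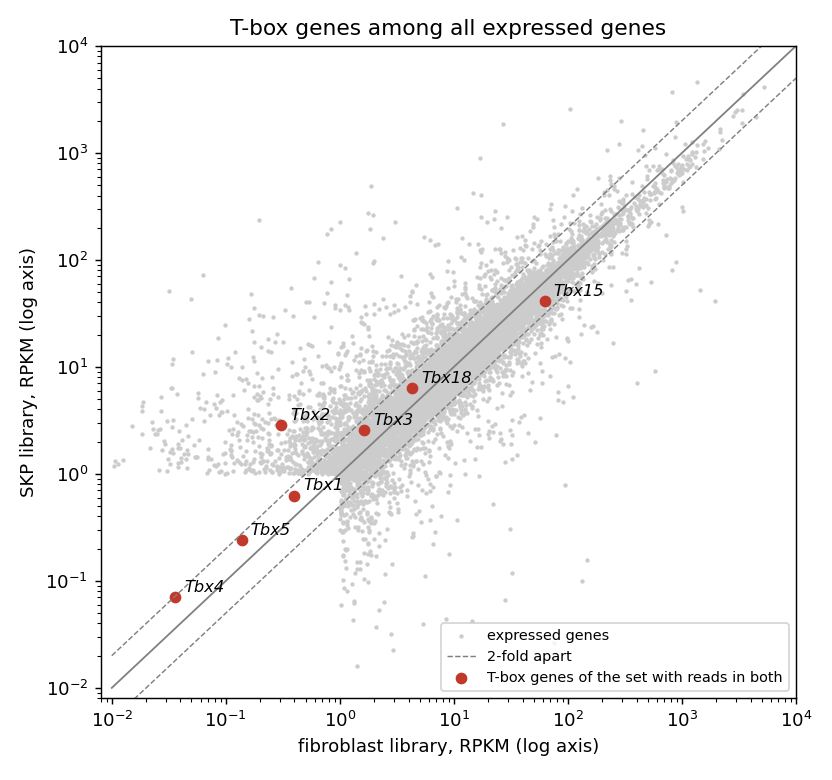
RPKM in the SKP library against RPKM in the fibroblast library, both on log axes. Grey points are the expressed genes and red points the 7 T-box genes, in each case those with reads in both libraries. The solid line marks equal levels and the dashed lines 2-fold. Tbx2 lies far above the upper dashed line, and Tbx15, Tbx18 and Tbx3 lie between the lines.

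The genes nearest to each expressed T-box gene, by Euclidean distance between log2 RPKM pairs over the 2 libraries, were Lrg1 (2.85 RPKM in the SKP library, 0.277 in the fibroblast library) and Cfd for Tbx2. For Tbx15 they were Traf7 and Kpna2, for Tbx18 Pole2 and Ampd3, and for Tbx3 Zfp618 and Acot11. Within 0.25 log2 units lay 2 genes for Tbx2, against 75 for Tbx15, 145 for Tbx18 and 70 for Tbx3. With 2 libraries such likeness describes position in these data and no more.

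On the chromosome, Tbx2 lay between genes that were under 2-fold apart or barely detected. Bcas3, on its other side from Tbx4, stood at 10.3 RPKM in the SKP library and 8.27 RPKM in the fibroblast library, a ratio of 1.25 (1.12 to 1.40). Tbx4 itself had 4 reads in SKPs and 2 in fibroblasts, and Brip1 beyond it had a ratio of 0.834 (0.673 to 1.03). Around Tbx3 and Tbx5, Med13l had a ratio of 1.12 (1.05 to 1.19) and Rbm19 a ratio of 1.03 (0.921 to 1.15). Beside Tbx18, Nt5e, which encodes the ectonucleotidase CD73, stood at 13.4 RPKM in the SKP library and 5.71 RPKM in the fibroblast library and was called higher, at 2.34-fold (2.07 to 2.65). On the other side of Tbx18, Cep162 had a ratio of 1.20 (1.05 to 1.37), under 2-fold. Beside Tbx15, Wars2 had a ratio of 1.12 (0.952 to 1.31) and Spag17 had 2 reads in each library.

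Of 9 other T-box family genes, 5 had a read and 1 was expressed. Mga, a large T-box protein that also pairs with MAX, stood at 9.17 RPKM in the SKP library and 5.94 RPKM in the fibroblast library, a ratio of 1.54 (1.45 to 1.65) under the 2-fold limit. Tbx6, a gene of presomitic mesoderm, had 4 reads in the SKP library and 24 in the fibroblast library, a ratio of 0.162 (0.041 to 0.471) below the expression filter, and was listed in the authors' filtered table. Eomes had 1 read in the SKP library and 10 in the fibroblast library, Tbr1 had 6 in SKPs and 2 in fibroblasts, and Tbx10 had 1 in SKPs and 0 in fibroblasts. T, Tbx19, Tbx21 and Tbx22 have no row in the tables used and were not analysed here.

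Of 24 genes listed as corepressors and partners of T-box factors, or as relatives of these, 12 were expressed. Among the 12, 2 were higher and 1 lower in SKPs and 9 neither. Over all expressed genes 12.1% were higher, 6.41% lower and 81.5% neither, so most of these genes, like most genes, were under 2-fold apart. Their median log2 ratio was -0.34, against -0.0065 over all expressed genes. Wwtr1, which encodes TAZ, a coactivator of Tbx5, stood at 124 RPKM in the SKP library and 40.7 RPKM in the fibroblast library, 3.04-fold higher (2.92 to 3.16). Tle4, a Groucho corepressor of the kind that Tbx15, Tbx18 and Tbx20 recruit, was 2.11-fold higher (1.64 to 2.72). Eya4, a phosphatase and transcriptional cofactor, stood at 0.438 RPKM in the SKP library and 3.21 RPKM in the fibroblast library, a ratio of 0.136 (0.0924 to 0.196). By mean level over the libraries the most abundant of the others were the Groucho-related Aes, at 224 RPKM in the SKP library and 354 RPKM in the fibroblast library, and Pdlim7, a LIM protein that tethers Tbx4 and Tbx5, at 58.9 RPKM in SKPs and 93.3 RPKM in fibroblasts.

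Of 23 genes listed as T-box targets or as linked to such targets 15 were expressed, 5 of them higher and 1 lower in SKPs and 9 neither. The shares over all expressed genes were 12.1% higher and 6.41% lower. Their median log2 ratio was 0.66. Cdkn2a, a cell cycle inhibitor that Tbx2 and Tbx3 are known to repress, stood at 97.9 RPKM in the SKP library and 21.0 RPKM in the fibroblast library, 4.66-fold higher (4.16 to 5.24). Cdkn1a, the p21 gene that Tbx2 is also known to repress, stood at 292 RPKM in SKPs and 301 RPKM in fibroblasts, with a ratio of 0.971 (0.945 to 0.997). The gap junction gene Gja1, another gene known to be repressed by Tbx2, stood at 168 RPKM in the SKP library and 39.8 RPKM in the fibroblast library, 4.22-fold higher (4.03 to 4.41).

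The growth response gene Egr1 stood at 94.3 RPKM in SKPs and 17.3 RPKM in fibroblasts, 5.45-fold higher (5.09 to 5.84). The protease inhibitor gene Cst6 had 164 reads in the SKP library and 14 in the fibroblast library, 11.4-fold higher (6.59 to 21.3). Cyp26b1, which degrades retinoic acid, was 3.45-fold higher (3.29 to 3.61). Among those under 2-fold, the stress response gene Ndrg1 stood at 32.3 RPKM in SKPs and 57.6 RPKM in fibroblasts. Fgf10, the limb bud growth factor that Tbx4 and Tbx5 activate, stood at 7.10 RPKM in the SKP library and 13.1 RPKM in the fibroblast library, a ratio of 0.542 (0.49 to 0.599).

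Of 20 genes that mark limb and trunk position 15 were expressed, 1 of them higher and 2 lower in SKPs and 12 neither, a share near the 81.5% of all expressed genes. Their median log2 ratio was -0.53. Alx4, a homeobox gene of limb and dermis, stood at 32.9 RPKM in the SKP library and 2.99 RPKM in the fibroblast library, 11.01-fold higher (9.75 to 12.5). The trunk gene Hoxc8 had a ratio of 0.418 (0.385 to 0.455), and the hindlimb gene Hoxc11 a ratio of 0.248 (0.124 to 0.462) from 13 reads in the SKP library and 51 in the fibroblast library. By mean level the most abundant of the others were the mesenchymal genes Prrx1, at 104 RPKM in SKPs and 142 RPKM in fibroblasts, and Prrx2, at 91.9 RPKM in SKPs and 69.4 RPKM in fibroblasts. Pitx1, the hindlimb gene upstream of Tbx4, had 11 reads in the SKP library and 2 in the fibroblast library.

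Of 15 signals and regulators known to act upstream of T-box genes 12 had a read and 10 were expressed, 4 of them higher and 2 lower in SKPs and 4 neither. Among all expressed genes the shares were 12.1% higher and 6.41% lower. Their median log2 ratio was 0.69. Bmp2, Bmp4 and Bmp7, of a family known to induce Tbx2 and Tbx3, were higher in SKPs, where alone they met the expression limit. Bmp2 had 1043 reads in the SKP library and 8 in the fibroblast library, 127-fold higher (64.0 to 294). Bmp7 had 157 reads in SKPs and 3 in fibroblasts, 50.8-fold higher (17.1 to 249), and Bmp4 was 3.36-fold higher (2.15 to 5.42). The growth factor gene Tgfb1 was 2.30-fold higher (2.20 to 2.40). Foxc2, a forkhead activator of Tbx1 in mouse embryos, was lower, with 18 reads in SKPs and 100 in fibroblasts, and so was its relative Foxf2, with 13 reads in SKPs and 46 in fibroblasts. Both met the expression limit in fibroblasts only. The Wnt effector gene Ctnnb1 stood at 197 RPKM in SKPs and 137 RPKM in fibroblasts, and the ligand gene Wnt5a at 28.0 RPKM in SKPs and 15.6 RPKM in fibroblasts, both under 2-fold.

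**Figure D4:**
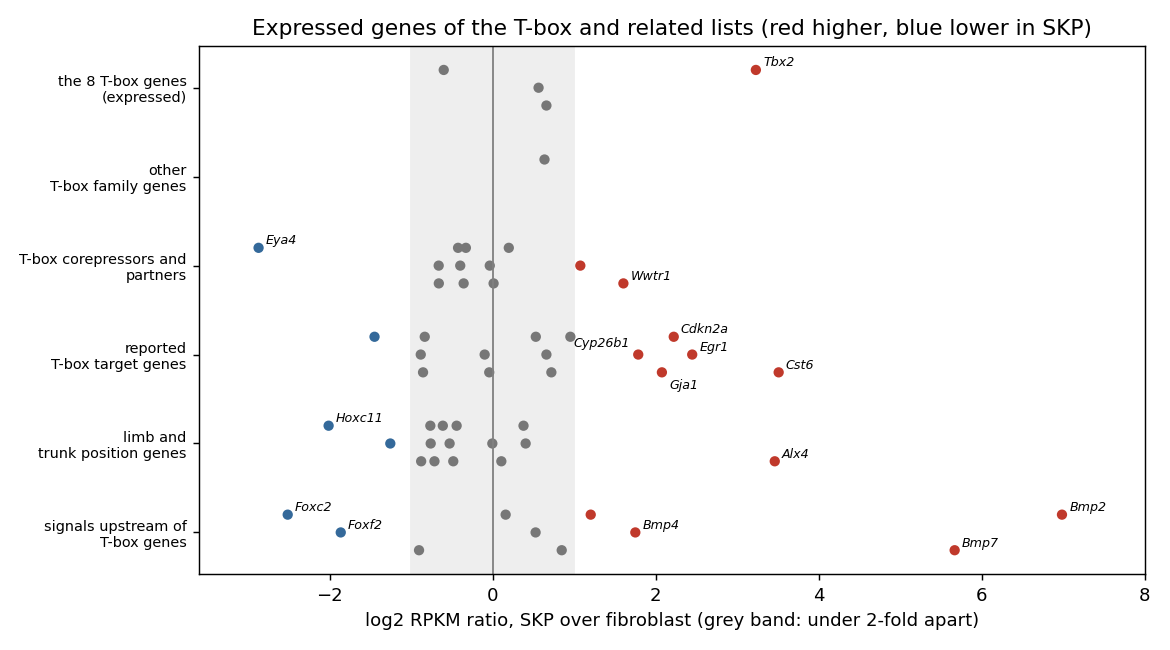
Log2 ratio of SKP over fibroblast RPKM for the expressed genes of the 8-gene T-box set and of 5 related lists, 1 point per gene with vertical offsets for legibility only. The grey band marks less than 2-fold, and red and blue points are genes called higher and lower in the SKP library. Names stand at called genes with a log2 ratio of at least 1.5 in size. Tbx2 is the red point of the top row, and Bmp2 and Bmp7 lie farthest to the right in the bottom row.

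Both libraries carried dermal fibroblast markers at high levels, with all 10 markers expressed and a summed level of 9751 RPKM in the SKP library and 9394 RPKM in the fibroblast library. Of the 10, 3 were higher in SKPs, 2 lower and 5 neither. For this and the marker counts below, the shares over all expressed genes were 12.1% higher and 6.41% lower. By mean level Col1a1, Col1a2 and Dcn led. Col1a1 was called lower, at 2161 RPKM in SKPs and 4474 RPKM in fibroblasts, and Col1a2 was neither, with a ratio of 0.789. Dcn, a small proteoglycan gene, was called higher, at 2007 RPKM in SKPs and 291 RPKM in fibroblasts. All 9 SKP markers were expressed, with 2 higher in the SKP library and 7 neither. Genes of the dermal papilla, the follicle mesenchyme in which Tbx18 is known to be active, had 11 of 15 expressed, 7 of them higher in the SKP library and 1 lower, led by Crabp1 at 4616 RPKM in the SKP library and 1361 RPKM in the fibroblast library. Vcan stood at 106 RPKM in SKPs and 71.3 RPKM in fibroblasts, and Fgf7, the 1 lower gene, at 5.49 RPKM in the SKP library and 30.9 RPKM in the fibroblast library. The agouti gene Asip has no row in the tables used and was not analysed here.

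Markers of keratinocytes, mast cells, adipocytes, leukocytes and skeletal muscle were, where called, higher in SKPs, and so was the 1 called endothelial marker. Over all expressed genes 12.1% were higher and 6.41% lower. The summed level was 32.2 RPKM in the SKP library and 2.85 RPKM in the fibroblast library for keratinocytes (6 of 9 markers expressed, 6 higher, 0 lower, with Ivl and, below the filter, Krt1 at 0 reads in fibroblasts). For mast cells it was 83.1 RPKM in SKPs and 0.241 RPKM in fibroblasts (6 of 7 expressed, 6 higher, 0 lower, Cpa3 and Mcpt4 at 0 in fibroblasts). For adipocytes it was 395 RPKM in SKPs and 32.4 RPKM in fibroblasts (7 of 7 expressed, 6 higher, 0 lower), led by Fabp4. For leukocytes it was 22.3 RPKM in SKPs and 3.87 RPKM in fibroblasts (2 of 7 expressed, 2 higher, 0 lower). Below the filter, Emr1 had 13 reads in SKPs and Cd4 had 1, each with 0 in fibroblasts. Skeletal muscle markers summed to 177 RPKM in the SKP library and 113 RPKM in the fibroblast library (7 of 9 expressed, 5 higher, 0 lower), led by Acta1, Tnnt3 and Myh3.

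Melanocyte and Schwann cell markers summed to 22.5 RPKM in the SKP library and 12.5 RPKM in the fibroblast library (5 of 9 expressed, 2 higher, 2 lower). Endothelial markers summed to 5.18 RPKM in SKPs and 1.89 RPKM in fibroblasts (1 of 8 expressed, 1 higher, 0 lower). Pericyte markers summed to 238 RPKM in SKPs and 203 RPKM in fibroblasts (4 of 6 expressed, 1 higher, 1 lower). Cardiac and epicardial markers, which include partners of Tbx5 and Tbx20, summed to 14.2 RPKM in SKPs and 17.6 RPKM in fibroblasts, with 1 of 6 expressed (Tnnt2) and 0 called, and Nkx2-5 had 1 read in the SKP library and 0 in the fibroblast library. Pax7, Krt15, Cd3e and Tcf21 have no row in the tables used. The part of these cell types in the T-box levels was not tested.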

How the data were processed

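A library of SKPs and a library of fibroblasts were grouped by the cell type in their labels. Per the file headers, the authors deposited a count of reads per gene, not normalized, which sums to 18949264 for SKPs and 18406244 for fibroblasts, an RPKM from that count, the gene length and the total, and a percent of gene length covered. The deposited mapping tables give read numbers and percent of total reads, with 85.13% of SKP and 81.65% of fibroblast reads mapped. The authors' deposited comparison table gives a log2 ratio of fibroblast over SKP RPKM, a p-value and an FDR per gene, and only the ratio and the filtered list were used. The submitters' processing notes name mm9 as the build. For the aligner, counting tool, annotation and strand nothing is stated in these sources.

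Ratios, exact intervals and figures came from scipy 1.17.1, numpy 2.4.6, pandas 2.3.3 and matplotlib 3.10.9 under Python 3.11.15, with the interval code tested on simulated counts. Per 1 kb of gene, 1 read equals 0.0528 RPKM in the SKP library and 0.0543 RPKM in the fibroblast library, and a count of 0 allows 3 reads. With 1 library per group no test, count model or leave-one-out was run. Read sharing was checked with bwa 0.7.19 by aligning every 49-base window of each longest coding transcript to GENCODE transcripts of build GRCm38, so it describes that annotation, and gene order is from RefSeq GRCm38.p6. The 8 genes and all lists were chosen with earlier results of these data known. The text names all 8, every called gene of the related lists with up to 2 other abundant ones, and up to 3 abundant markers per cell type. Some genes that this rule takes in are not reported here. Fgf10, Pitx1, Tbx6, Eomes, Tbr1, Tbx10, Nkx2-5 and Asip were named after their values were seen.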

Additional observations from a re-analysis of the deposited data

How the results depend on the processing

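No paired analysis was possible because each group has 1 library. Tbx2 was the 1 T-box gene called higher in the SKP library, and 0 were called lower, under 3 other scalings (shifts of 0.0065, -0.046 and -0.021 log2 units), 2 pseudocounts, no filter on low values, a 4-fold limit and the authors' deposited ratio, which equals the ratio used here. Shifts this small, the dropped filter and the authors' ratio could not have changed the call of Tbx2. With RPKM of at least 5 required, 0 genes were called higher, since Tbx2 was no longer tested. At 1.5-fold 2 genes were higher (Tbx2 and Tbx3), beside 18.7% of expressed genes, and 1 was lower (Tbx15), beside 14.2%. Across the scalings and pseudocounts the log2 ratio of each gene stayed within its counting interval, with 1 exception, while the filters leave these ratios as they are by construction. The exception was Tbx2 on the log2(RPKM + 1) scale, at 1.56 against 3.23, which that pseudocount lowers by construction at such levels. Depth limits Tbx1, Tbx4, Tbx5 and Tbx20, with 0 to 21 reads per library.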
